A study of Mus musculus with 5 samples.

Results

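The genes studied here encode the subunits of AMP-activated protein kinase (AMPK) and its main upstream kinase, LKB1, in ribosome-bound RNA of mouse soleus myocytes. The members were taken by symbol: *Prkaa1* and *Prkaa2* (catalytic α subunits), *Prkab1* and *Prkab2* (β), *Prkag1*, *Prkag2* and *Prkag3* (γ), and *Stk11* (LKB1). These are 8 of the 19505 genes with a symbol on the array, and each of the 8 had 1 probe set. The RNA came from the left soleus of 5 sedentary mice labelled Myogenin-Cre x RiboTag-Rpl22fl/fl-HA (HA-RiboTag-Myo), numbered 1, 3, 11, 14 and 16. All 5 mice thus share the Cre and the tagged allele, and they form a single group. Cre under myogenin control adds an HA tag to RPL22, a ribosomal protein, in myogenin-positive cells, so the anti-HA pulldown takes ribosomes, and the mRNA on them, of cells that have expressed myogenin. Fast and slow fibers are pulled down together, and no untagged RNA or other muscle was analysed here. Each mouse gave 1 Affymetrix Clariom S array, and values are the log2 signals that the authors deposited. The labels give no age or sex, and the study's methods state that males were used, after sexual maturity, unless otherwise noted.

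AMPK is a heterotrimer of an α, a β and a γ subunit that senses cellular energy. The γ subunit binds AMP, ADP and ATP, the β subunit holds the complex together and binds glycogen, and LKB1 phosphorylates the activation loop of α. In skeletal muscle, contraction and energy stress activate AMPK, which acts on glucose uptake, fatty acid oxidation, protein synthesis and autophagy.

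Signals were read against a background cutoff, the 95th percentile of 1091 odorant receptor genes on the same array, which was 5.32, 5.26, 5.28, 5.28 and 5.25 in mice 1, 3, 11, 14 and 16. The distance of a gene is its log2 signal minus this cutoff. Genes with a positive mean distance and an adjusted p below 0.05 in limma (two-sided, Benjamini-Hochberg over 19505 genes) were called above background, which held for 43.5% of all genes. Probe sets differ in affinity, so no signal or distance of one gene ranks its abundance against another gene. Markers of slow and fast fibers were called in 8 of 8 and 10 of 10 genes. Of 26 markers of other cells, 10 were called, at distances up to 4.42: endothelium 4 of 6, fibroblasts 4 of 4 and smooth muscle 2 of 4, but none of the 12 markers of satellite cells, immune cells, Schwann cells and adipocytes. The mean signal of the 26 genes was between 5.41 in mouse 11 and 5.75 in mouse 14, and the part of such cells in the members' signals was not tested. Y-linked *Eif2s3y*, *Kdm5d* and *Uty* were below the cutoff in mice 1 and 16 and above it in mice 3, 11 and 14, with *Eif2s3y* at 3.54 and 3.53 in mice 1 and 16 against 10.42, 11.92 and 12.73 in mice 3, 11 and 14. The low values of mice 1 and 16 go against male sex for these mice, and values without them were also computed.

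All 8 members were called above background, against 43.5% of all genes, and each was above the cutoff in 5 of 5 mice. The median distance of the members was 3.97, against -0.12 over all genes. Neither difference from all genes was tested. The distances ran from 0.59 for *Prkag2* to 9.33 for *Prkaa2*. The call held for 6 members under each of 15 alternative settings, and those of *Prkag2* and *Prkag3* were lost under stricter backgrounds, as given with these genes. Without mice 1 and 16, all 8 were still called.

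**Figure D1:**
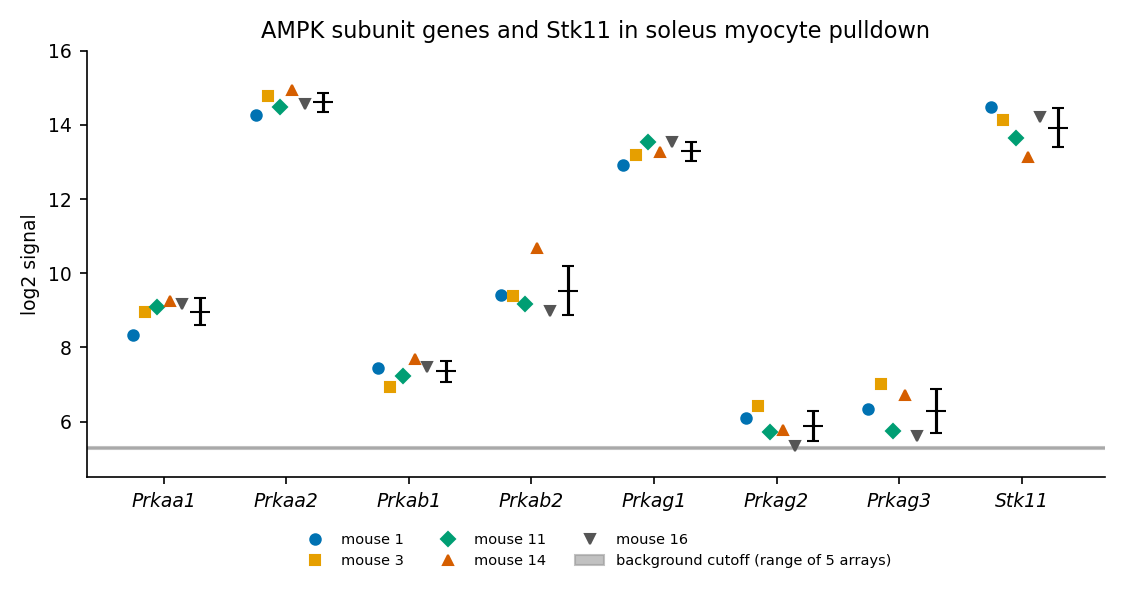
Log2 signal (y axis) of the 8 member genes (x axis) in each of 5 mice, with the mean and SD as a bar at the right of each gene and the background cutoff as a grey band. All points lie above the band, *Prkag2* of mouse 16 the nearest at 5.34, and mouse 14 stands apart for *Prkab2* at 10.69.

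Both catalytic subunits were above background in the pulldown. *Prkaa2*, the α2 subunit that predominates in skeletal muscle, read 14.28, 14.78, 14.48, 14.94 and 14.55 in mice 1, 3, 11, 14 and 16, respectively, an order kept for all lists of 5 values. These values stayed within 1.58-fold of each other, with a mean of 14.61 ± 0.26 (SD, n = 5). The distance was 9.33 (SE 0.15), at an adjusted p of 9.22e-14 in limma. *Prkaa1*, the more widely expressed α1 subunit, read 8.34, 8.95, 9.09, 9.25 and 9.17 in mice 1, 3, 11, 14 and 16. Mouse 1 was the lowest of the 5 for both α genes. The mean of *Prkaa1* was 8.96 ± 0.36 (SD, n = 5), and the SD fell to 0.13 without mouse 1. Its distance was 3.68 (SE 0.17, 95% interval 3.32 to 4.04), with an adjusted p of 8.04e-10 in limma.

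Both β subunits were above background, and a single mouse set most of the spread of *Prkab2*. *Prkab1*, encoding β1, read 7.46, 6.92, 7.24, 7.68 and 7.47 in mice 1, 3, 11, 14 and 16. Its mean was 7.35 ± 0.29 (SD, n = 5), with mouse 3 lowest and an SD of 0.18 without that mouse. The distance of *Prkab1* was 2.08 (SE 0.15), at an adjusted p of 7.73e-08 in limma. *Prkab2*, encoding β2, the isoform typical of skeletal muscle, read 9.42, 9.38, 9.18, 10.69 and 8.99 in mice 1, 3, 11, 14 and 16. Mouse 14 lay well above the others, which were close together. The mean was 9.53 ± 0.67 (SD, n = 5), the widest spread of the 8 members, and 90.9% of called genes had a smaller SD. Without mouse 14, the SD of *Prkab2* was 0.20. The distance was 4.26 (SE 0.22), with an adjusted p of 3.22e-09 in limma, and 3.97 without mouse 14.

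The genes whose values over the 5 mice were most like those of *Prkab2* were sought among 8481 other called genes, as the smallest root-mean-square difference between mean-centred signals. The nearest was *Selenop*, the selenium carrier selenoprotein P, with a difference of 0.069. It was followed by *Trappc12*, a subunit of a vesicle tethering complex, at 0.114. The next were *Wac* at 0.126, *Epas1*, encoding the hypoxia-inducible factor HIF-2α, at 0.130, and *Pstpip2* at 0.145. The median difference over the called genes was 0.665, a value that also depends on the wide spread of *Prkab2* itself. In all 5 genes mouse 14 was the highest, as in *Prkab2*: *Selenop* read 14.99 in mouse 14 and 13.31 to 13.72 in the others. That shared rank follows from the choice of genes by likeness to *Prkab2*, whose spread was set mostly by mouse 14. It is therefore no separate result.

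The γ subunits included the member with the smallest spread between mice and both members nearest to background. *Prkag1*, encoding the broadly expressed γ1, read 12.93, 13.19, 13.53, 13.26 and 13.53 in mice 1, 3, 11, 14 and 16. Its mean was 13.29 ± 0.25 (SD, n = 5), and only 23.4% of called genes had a smaller SD. The distance was 8.01 (SE 0.15, 95% interval 7.69 to 8.34), at an adjusted p of 2.84e-13 in limma.

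*Prkag3* encodes γ3, known as the γ isoform of fast, glycolytic fibers. It read 6.35, 7.01, 5.75, 6.73 and 5.62 in mice 1, 3, 11, 14 and 16. Mice 3 and 14 were the highest, and the 5 values covered a 2.61-fold range. The mean was 6.29 ± 0.60 (SD, n = 5), and 86.2% of called genes varied less. The distance of 1.02 (SE 0.21, 95% interval 0.56 to 1.47) gave an adjusted p of 0.000598 in limma. With the 99th percentile of odorant receptors as the cutoff, *Prkag3* was 0.48 above it and no longer called (adjusted p = 0.0631, limma). With keratin-associated proteins and beta-defensins as background, it was only just called (distance 0.46, adjusted p = 0.0499, limma).

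*Prkag2* encodes γ2, whose mutations in humans cause a cardiomyopathy with glycogen storage. It read 6.09, 6.42, 5.72, 5.79 and 5.34 in mice 1, 3, 11, 14 and 16. The value of mouse 16 was close to that array's cutoff of 5.25. The mean was 5.87 ± 0.40 (SD, n = 5) and the distance 0.59 (SE 0.17, 95% interval 0.22 to 0.96), at an adjusted p of 0.00557 in limma. The call was lost with vomeronasal receptors as background (distance 0.36, adjusted p = 0.0557, limma), with a set of keratin-associated proteins and beta-defensins (0.039, adjusted p = 0.825) and with the 99th percentile (0.054, adjusted p = 0.787).

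*Stk11*, encoding LKB1, read 14.47, 14.15, 13.66, 13.14 and 14.21 in mice 1, 3, 11, 14 and 16. Mouse 14, the highest of the 5 for *Prkaa1*, *Prkaa2*, *Prkab1* and *Prkab2*, was the lowest for *Stk11*. The mean was 13.93 ± 0.53 (SD, n = 5), and the SD was 0.34 without mouse 14. The distance was 8.65 (SE 0.19, 95% interval 8.23 to 9.07), with an adjusted p of 1.25e-12 in limma.

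Compared by mouse, no mouse was the highest or the lowest in all 8 members. Mouse 14 was highest in 4 of 8 members, with a median deviation from the gene means of 0.31. Its median over 8482 called genes was 0.02, but this median was small in every mouse, from -0.04 to 0.02. The share of called genes highest in mouse 14 was not counted, and a shift particular to the members was not tested. Mouse 1 was lowest in *Prkaa1*, *Prkaa2* and *Prkag1*, and mouse 16 in *Prkab2*, *Prkag2* and *Prkag3*. Mouse 11 had a median member deviation of -0.14, and those of mice 1, 3 and 16 lay between -0.03 and 0.08. The median SD of the 8 members was 0.38, against 0.36 over called genes.

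**Figure D2:**
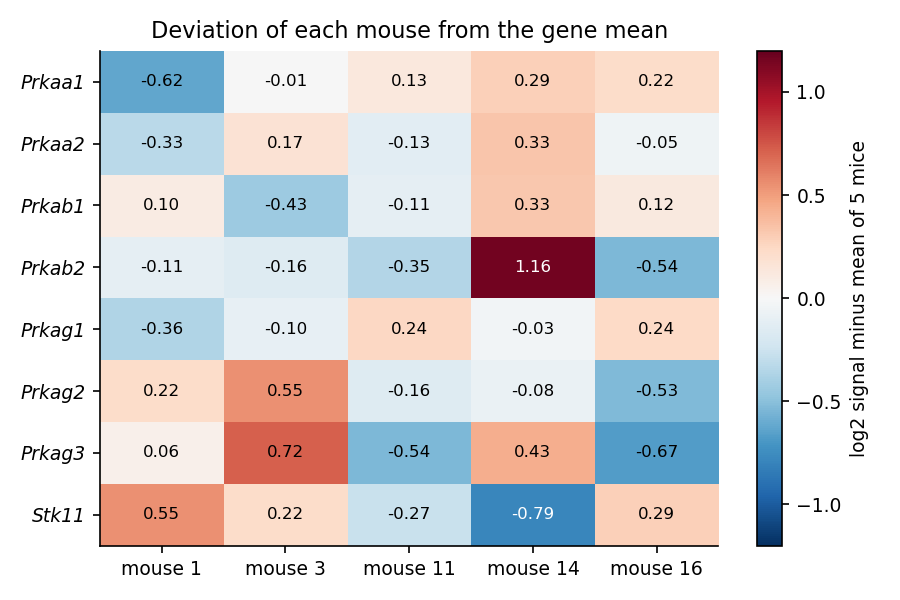
Deviation of each mouse (columns) from the mean log2 signal of the gene (rows), as printed in each cell and coloured from blue (lower) to red (higher). Mouse 14 was 1.16 above the mean for *Prkab2* and 0.79 below it for *Stk11*.

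LKB1 is active in a complex with a STRAD pseudokinase and the scaffold MO25, and the probe sets called at this step were those of STRADβ and both MO25 genes. *Stradb* read 13.90, 14.02, 13.91, 14.55 and 14.07 in mice 1, 3, 11, 14 and 16. Mouse 14 was apart from the others, and the distance was 8.82 (SE 0.15, adjusted p = 1.39e-13, limma). *Strada*, encoding STRADα, read 5.09 to 5.64 and was not called, at a distance of 0.08 (SE 0.14, 95% interval -0.23 to 0.40, adjusted p = 0.590, limma). The difference between the STRAD genes is one between probe sets and was not tested. *Cab39*, encoding MO25α, read 14.48, 14.99, 15.49, 15.14 and 13.81 in mice 1, 3, 11, 14 and 16, with a distance of 9.51 (SE 0.22). *Cab39l*, encoding MO25β, read 10.28 to 11.43, with a distance of 5.61 (SE 0.19). *Stk11ip*, encoding an LKB1-binding protein, was below the cutoff in 5 of 5 mice, at -0.88 (SE 0.14).

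Of the other kinases that can phosphorylate AMPKα, *Map3k7*, encoding TAK1, was called, with signals of 9.02 to 9.57 and a distance of 4.02 (SE 0.15). *Camkk2*, encoding the calcium-dependent kinase CaMKK2, was not called. It read 6.02, 5.10, 5.48, 4.87 and 5.57 in mice 1, 3, 11, 14 and 16. It was thus above the cutoff in 3 of 5 mice, and the distance was 0.13 (SE 0.17, 95% interval -0.25 to 0.51, adjusted p = 0.477, limma). Without mouse 1 the distance was -0.0099.

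Together with these 7 genes, 59 genes of the AMPK network were measured, and 52 of them were called, against 43.5% of all genes. The lists were chosen with earlier results of these data known, and the difference from all genes was not tested. Of the proteins known to modulate AMPK, 10 of 11 were called. *Ppm1a*, a phosphatase that acts on AMPKα, and *Flcn*, encoding folliculin, lay furthest above the cutoff, at 7.52 (SE 0.19) and 6.65 (SE 0.17). *Sesn1*, encoding the stress protein sestrin 1, varied most, from 8.29 in mouse 14 to 10.96 in mouse 1. *Fnip2*, whose product binds folliculin and AMPK, ran from 5.53 in mouse 14 to 7.01 in mouse 1. *Sesn2*, the sestrin 2 gene, was the exception, at -1.74 (SE 0.18) and below the cutoff in every mouse.

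Kinases of the AMPK-related family, which LKB1 also phosphorylates, were called in 9 of 11 genes. *Sik3* and *Snrk* lay furthest above the cutoff, at 6.16 (SE 0.13) and 4.94 (SE 0.14). *Nuak1* ranged from 9.06 in mouse 14 to 11.14 in mouse 3, and *Sik1* from 9.17 in mouse 3 to 11.14 in mouse 11. *Brsk1*, best known from neurons, was at -0.01 (SE 0.19) and above the cutoff in 3 of 5 mice. *Nuak2* was below it in all 5 mice, at -1.48 (SE 0.14).

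**Figure D3:**
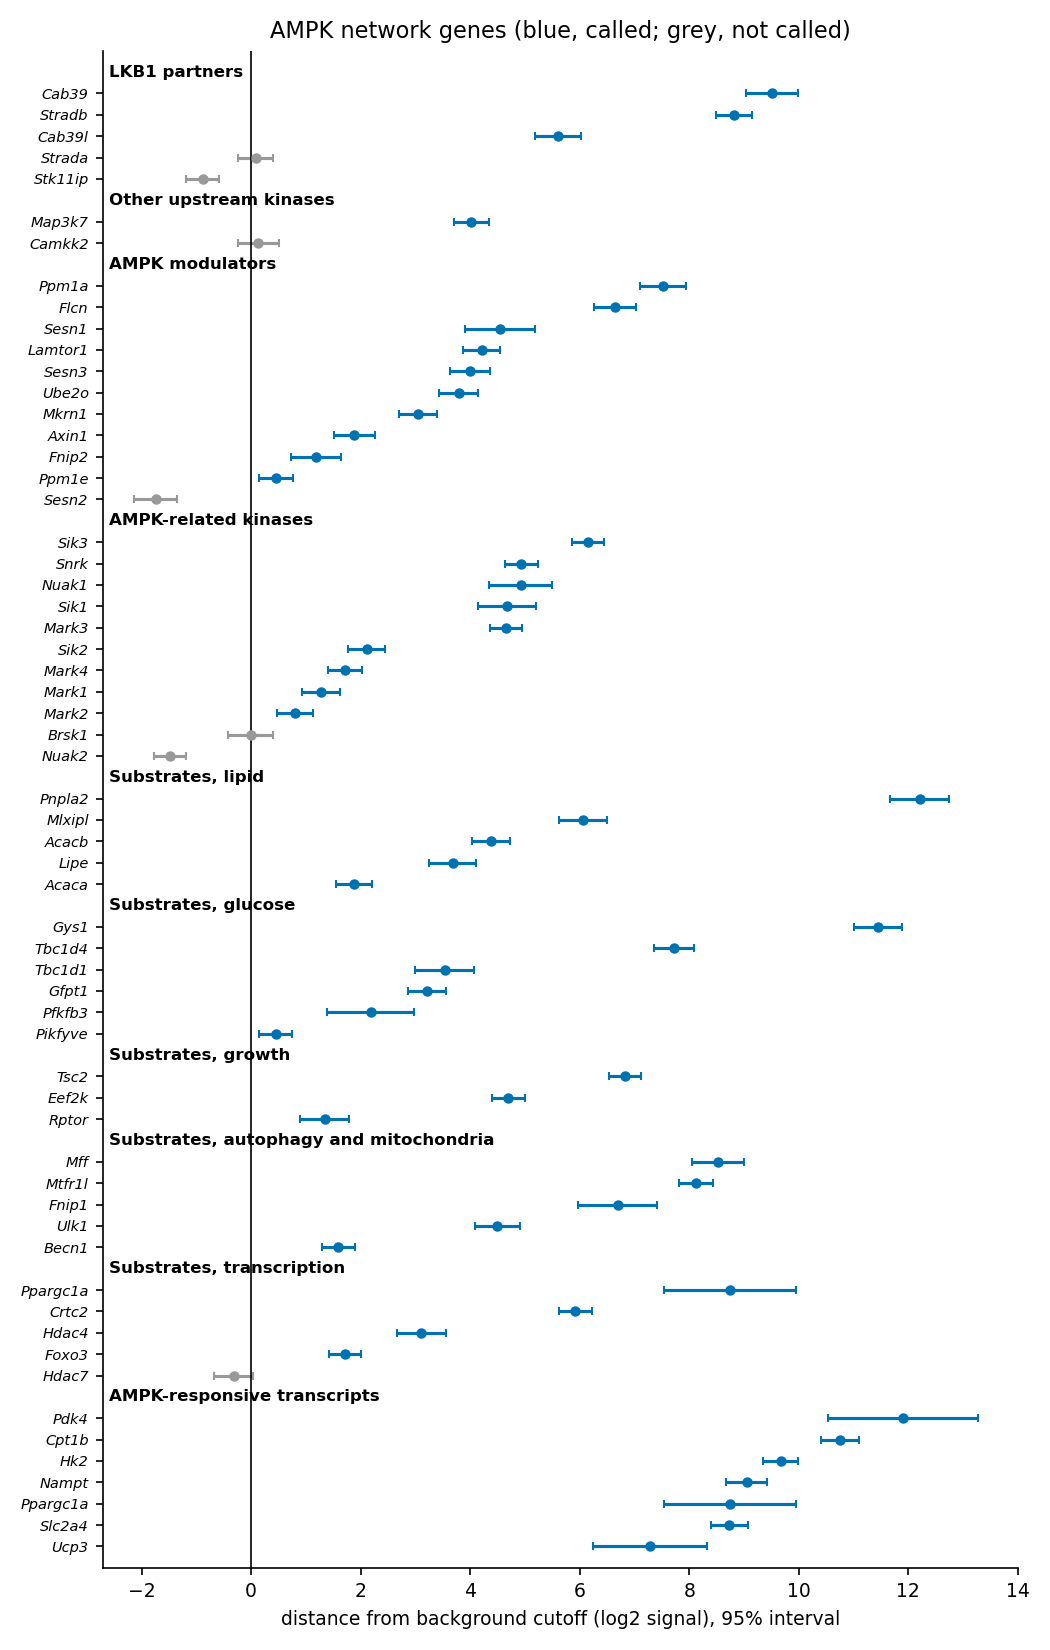
Distance from the background cutoff (x axis, log2 signal) of 59 AMPK network genes grouped by role, as the mean of 5 mice with its 95% interval. Blue genes were called and the 7 grey genes were not, and *Ppargc1a* is shown under both of its roles.

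Genes of AMPK substrates were called in 23 of 24. Among those of lipid metabolism (5 of 5), *Pnpla2*, encoding adipose triglyceride lipase, was at 12.21 (SE 0.25) and *Mlxipl*, encoding the glucose-responsive factor ChREBP, at 6.06 (SE 0.20). *Pnpla2* read 17.58 to 18.00 in 4 mice and 16.11 in mouse 16. *Lipe*, encoding hormone-sensitive lipase, ran from 8.13 in mouse 16 to 9.62 in mouse 14. *Acacb*, the muscle acetyl-CoA carboxylase ACC2, read 10.24 in mouse 3 and 9.42 to 9.61 in the others.

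Substrates of glucose metabolism were called in 6 of 6 genes. *Gys1*, muscle glycogen synthase, and *Tbc1d4*, encoding the Rab GTPase-activating protein AS160 that restrains GLUT4, lay furthest above the cutoff at 11.45 (SE 0.20) and 7.72 (SE 0.17). *Tbc1d1*, a close relative of *Tbc1d4*, read 8.27, 9.72, 8.35, 9.58 and 8.13 in mice 1, 3, 11, 14 and 16. Mice 3 and 14 were the highest, as in *Prkag3*. *Pfkfb3*, whose product makes fructose 2,6-bisphosphate, read 6.53, 5.97, 7.66, 8.01 and 9.13 in mice 1, 3, 11, 14 and 16, an 8.91-fold range.

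In growth control 3 of 3 substrate genes were called: *Tsc2*, a brake on mTORC1, at 6.83 (SE 0.13), *Eef2k*, the kinase of elongation factor 2, at 4.69 (SE 0.14), and *Rptor*, the raptor subunit of mTORC1, at 1.35 (SE 0.20). In autophagy and mitochondrial dynamics 5 of 5 were called, with *Mff*, the receptor for mitochondrial fission, at 8.52 (SE 0.22) and *Mtfr1l* at 8.12 (SE 0.14). *Fnip1*, encoding a folliculin partner, had the largest spread of these, with 12.99, 13.35, 11.61, 11.07 and 10.82 in mice 1, 3, 11, 14 and 16. In transcription 4 of 5 were called, among them *Crtc2*, a CREB coactivator, at 5.92 (SE 0.14). *Hdac4*, a class IIa histone deacetylase, read 7.66 to 9.28, whereas *Hdac7* of the same class was at -0.32 (SE 0.16, adjusted p = 0.0845, limma).

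Transcripts known to rise with AMPK activity in muscle were called in 7 of 7 genes. Of these, *Ppargc1a*, *Pdk4* and *Ucp3* varied far more between mice than the AMPK subunits did. The median SD of the list was 0.40, close to the 0.38 of the members. *Ppargc1a*, encoding the mitochondrial coactivator PGC-1α and also an AMPK substrate, read 15.73, 16.11, 13.22, 13.88 and 11.17 in mice 1, 3, 11, 14 and 16. *Pdk4*, the kinase that shuts off pyruvate dehydrogenase, read 18.85, 18.90, 17.85, 16.96 and 13.37 in mice 1, 3, 11, 14 and 16. *Ucp3*, a mitochondrial uncoupling protein, read 13.71, 14.57, 12.04, 12.34 and 10.12 in mice 1, 3, 11, 14 and 16. In each of these, as in *Fnip1*, mice 1 and 3 were the highest and mouse 16 the lowest. *Nampt* of the same list had this order too (SD 0.40), but *Hk2* (SD 0.28), *Slc2a4* and *Cpt1b* did not. The share of all called genes with this order was not counted. The SDs were 2.01 for *Ppargc1a*, 2.28 for *Pdk4* and 1.70 for *Ucp3*, against at most 0.67 for a member. *Cpt1b*, the muscle carnitine palmitoyltransferase, ran only from 15.47 to 16.33, and *Slc2a4*, encoding GLUT4, from 13.70 to 14.38. Of the 8 members, only *Prkag2* had mice 1 and 3 as its highest pair and mouse 16 as its lowest, over a 2.10-fold range. With single arrays per mouse and a single group, no test of these differences between mice could be made.

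The pattern of *Prkag3* was followed in other genes after its values had been seen. Mice 3 and 14 were both higher than mice 1, 11 and 16 in 2 of 8 members, *Prkaa2* and *Prkag3* itself, from which the pattern was taken. They were so in 7 of the 52 called network genes, *Tbc1d1* among them, against 10.3% of called genes. The same was so in 5 of 10 fast fiber markers: *Myh1*, *Myh4*, *Tnnc2*, *Actn3* and *Pvalb*. *Myh4*, the myosin heavy chain of type IIB fibers, read 16.72, 18.44, 17.69, 19.83 and 17.10 in mice 1, 3, 11, 14 and 16. *Pvalb*, the fast-fiber calcium buffer parvalbumin, read 14.44, 15.95, 14.35, 16.31 and 14.69 in mice 1, 3, 11, 14 and 16. Over the 10 fast markers the mean signal was 18.47 in mouse 3 and 18.63 in mouse 14, and 17.88 to 17.98 in the others, with 3 genes at the array maximum in some mouse. None of 8 slow fiber markers had mice 3 and 14 highest, mouse 14 was the lowest in 7 of them, and their mean was 19.32 in mouse 14 against 19.52 to 19.65. These ranks and means are limited by saturation, since 5 of the 8 slow markers were at the array maximum in some mouse. Markers of other cells had mice 3 and 14 highest in 3 of the 10 that were called (*Kdr*, *Dcn* and *Rgs5*) and in none of the 16 others. Of the lower mice, 1 and 16 had the Y-linked genes below the cutoff, whereas mouse 11 had them above it, as did mice 3 and 14. The parts of fiber type, of other cells and of sex in the spread of *Prkag3* were not tested. In pulled-down RNA of a whole muscle, more fast fibers and more transcript per fiber cannot be told apart.

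**Figure D4:**
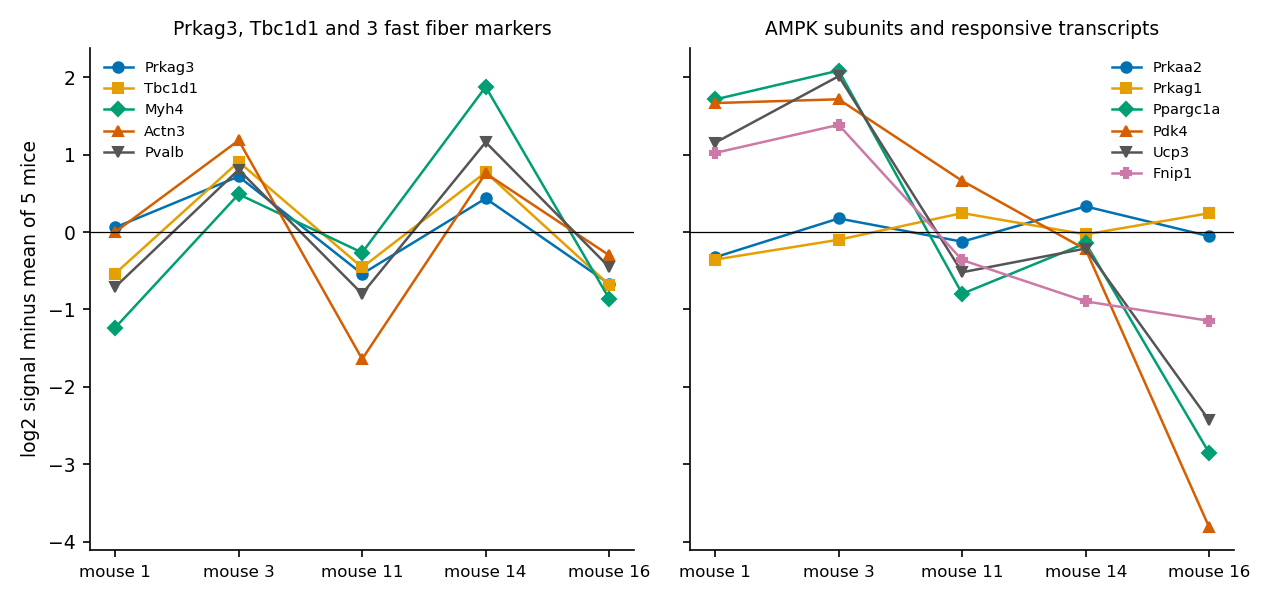
Log2 signal minus the mean of 5 mice (y axis) by mouse (x axis). Left, *Prkag3*, *Tbc1d1* and 3 fast fiber markers, all highest in mice 3 and 14. The 3 markers were picked after their values were seen, from the 5 of 10 fast markers with this order. Right, *Prkaa2*, *Prkag1*, AMPK-responsive genes and the substrate gene *Fnip1*. *Ppargc1a*, *Pdk4*, *Ucp3* and *Fnip1* were highest in mice 1 and 3 and lowest in mouse 16, while *Prkaa2* and *Prkag1* stayed within 0.36 of their means.

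The start sites of the members were read from RefSeq windows (GRCm38.p6) of 250 bases before each start. All 8 members matched, *Prkag2* with 3 windows and the others with 1 each. The windows of *Prkag3* and *Tbc1d1* are shown as examples of genes with mice 3 and 14 highest, chosen after their values were seen. *Prkaa2* had the same highest pair and no match, and the windows of the other 6 network genes with that pair were not searched. The E-box CAGCTG, a motif that myogenic factors can bind, is in capitals. The *Prkag3* window is chr1:74748956-74749205 on the minus strand, and that of *Tbc1d1* chr5:64160010-64160259 on the plus strand.

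Prkag3: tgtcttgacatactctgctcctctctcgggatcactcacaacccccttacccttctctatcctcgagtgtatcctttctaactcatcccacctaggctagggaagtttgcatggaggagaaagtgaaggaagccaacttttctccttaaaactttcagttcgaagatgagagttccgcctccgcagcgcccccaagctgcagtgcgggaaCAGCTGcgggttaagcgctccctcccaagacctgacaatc
Tbc1d1: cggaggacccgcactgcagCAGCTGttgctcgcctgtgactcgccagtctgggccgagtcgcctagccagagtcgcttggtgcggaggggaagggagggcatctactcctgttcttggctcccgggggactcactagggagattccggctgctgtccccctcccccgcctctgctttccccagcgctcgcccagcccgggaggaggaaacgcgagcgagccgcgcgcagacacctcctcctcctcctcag

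The motif begins 40 bases before the start in *Prkag3* and 231 bases before it in *Tbc1d1*, whose other window has none. CAGCTG reads the same on both strands and was found in 13% of 32851 windows. Among the members only the *Prkag3* window held it. A match of letters is a description and not a binding site. The windows also differed in base composition: that of *Prkaa1* on chromosome 15 was 85.2% G and C with 45 CpG, that of *Prkaa2* on chromosome 4 was 70% with 24, and that of *Stk11* on chromosome 10 was 59.6% with 24. *Prkag3*, at 52.4% and 9 CpG, and *Prkag1* on chromosome 15, at 51.6% and 12 CpG, had the lowest G and C shares among members with 1 window. The medians over all windows were 52.4% and 6 CpG.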

How the data were processed

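Ribosome-bound RNA from the left soleus of 5 mice was hybridized to 1 Clariom S array per mouse. The authors deposited log2 signals per probe set, made with Transcriptome Analysis Console 4.0 in its default configuration. For the genome build and the summarization algorithm, nothing is given in the sources used here. Of 22206 probe sets, 19572 had a single gene symbol and 2634 had none, and probe sets of the same gene were averaged (55 genes), giving 19505 genes. Array medians lay between 5.11 and 5.20, and arrays correlated with each other at a Pearson's r of 0.976 to 0.986 across probe sets, which are not independent. Signals were not normalized again.

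Distances from each array's background cutoff entered a one-sample limma model (limma 3.58.1, R 4.3.3) with eBayes moderation, a two-sided test against 0 and Benjamini-Hochberg adjustment over all genes. The cutoff rule called 0.825% of the odorant receptor genes that set it, 1.57% of the 319 genes of vomeronasal receptors and 6.74% of 89 genes of keratin-associated proteins and beta-defensins. The fit was tested on simulated data. All p-values rest on the spread among 5 mice in 1 group, no conditions were compared, and arrays carry no read depth, so their number limits the precision. In a group of 5, a mouse was taken as apart where Dixon's ratio, its gap to the nearest value over the whole range, passed 0.71.

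Members and gene lists were chosen with earlier results of these data known. Genes named are all members, all LKB1 partners and upstream kinases, and of every other list the 2 called genes furthest above the cutoff, the 2 called genes with the largest SD, those not called where 3 or fewer, and those with a mouse apart. *Ucp3*, *Slc2a4*, *Nampt*, *Hk2* and the markers were added after their values were seen. Listed symbols with no gene in the annotation, 7 of 66 in the network lists, were not analysed here. The alternatives replaced the background set (2 others), took the 50th, 90th or 99th percentile, applied quantile normalization or a trended and robust prior, kept the highest probe set per gene, filtered low genes, and left out each mouse in turn or both mice 1 and 16. Python 3.11.15 with pandas 2.3.3 and numpy 2.4.6 was used for tables, and matplotlib 3.10.9 for figures.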

Additional observations from a re-analysis of the deposited data

Results flagged for a closer look

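In 5 of 67 member and network genes, the highest or lowest mouse was apart from the other 4 by Dixon's ratio (critical value 0.71), where chance at 1 in 20 would give 3.35. *Prkab2* was the only member, with mouse 14 highest (ratio 0.745). Mouse 14 was also apart as the highest in *Stradb* (0.735), mouse 16 as the lowest in *Pnpla2* (0.778) and *Sik3* (0.732), and mouse 3 as the highest in *Acacb* (0.773).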

How the results depend on the processing

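The number of members called was 8, and 6 to 8 over the 15 alternatives, with 7 under either other background set and 6 at the 99th percentile. The number of network genes called was 52, and 49 to 57 over the alternatives. Leaving out each mouse in turn left these at 8 and 52. Of all 19505 genes, 8482 were called in the main setting. That count was 7997 with vomeronasal receptors and 7434 with keratin-associated protein and beta-defensin genes. It was 7457 at the 99th percentile and 12814 at the 50th, so the share over all genes moved with the setting too. The median SD of the members was 0.38, lay between 0.32 and 0.43 with a mouse left out, and was 0.99 with the range in place of the SD. Of the genes not called, *Strada* fell below the cutoff with vomeronasal receptors (-0.15), keratin-associated protein and beta-defensin genes (-0.47) and the 99th percentile (-0.46). *Camkk2* fell below it with the same settings (-0.10, -0.42 and -0.41), without mouse 1 (-0.0099) and without mice 1 and 16 (-0.12). *Brsk1* rose above it at the 50th (1.24) and 90th percentiles (0.27) and lay between -0.14 and 0.18 with each mouse left out in turn, above it without mouse 11 (0.0070) or mouse 14 (0.18). At the 50th percentile *Stk11ip* was at 0.36 and *Hdac7* at 0.93. *Strada* and *Camkk2* were called already at the 90th percentile (0.36 and 0.41). A lower or higher cutoff moves every distance by construction. No paired analysis was possible because the 5 mice form a single group.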
